A study of Mus musculus with 6 samples.

Results

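The 9 genes described here encode the receptors for type I and type II interferon (Ifnar1, Ifnar2, Ifngr1, Ifngr2) and transcription factors that carry or start the interferon response (Stat2, Irf9, Irf7, Irf3, Irf1). They were taken by gene symbol from a table of read counts for 49315 mouse genes. All 9 passed the low-count filter and were among the 13704 genes tested. RNA came from immortalized mouse keratinocytes, epithelial cells of skin origin. The 3A group was the line MK-546-ha3A (MK-/-:ha3), cells without mouse α3 integrin that had been given human α3 integrin, and the Control group was its parent MK-546 (MK-/-), with no α3 integrin. α3 pairs with the β1 chain as a laminin receptor. Each group had 3 libraries, named here 3A 1 to 3 and Control 1 to 3. All cells were untreated and grew at 33 °C and 8% CO2 on collagen-coated dishes. Whether the growth medium held interferon is not stated here, so the levels below cannot be taken as those of cells without interferon. Each group was a single cell line, and α3 and the history of the line cannot be told apart. The labels do not state whether replicates came from separate cultures, so p-values measure the spread among these libraries alone, which may be technical.

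Type I interferons bind a receptor built from Ifnar1 and Ifnar2, and interferon gamma binds one built from Ifngr1 and Ifngr2. Janus kinases on the receptors phosphorylate STAT proteins. Stat2 and Irf9 then act in a complex that binds interferon-stimulated response elements (ISRE), while STAT dimers bind gamma-activated sites (GAS), including one that induces Irf1. Irf3 is made constitutively and is activated downstream of nucleic acid sensors, whereas Irf7 is itself an interferon-induced gene that amplifies type I interferon production. Keratinocytes carry both receptor types.

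Total counts were between 34177002 and 36245240 in 3A and between 25634204 and 30919348 in Control. The libraries differed in ways that bear on the values below. Control 1 stood apart, with correlations across genes of 0.957 and 0.953 with Control 2 and Control 3, against 0.988 between the other two. Its correlations with 3A 1, 2 and 3 were 0.946, 0.955 and 0.951, so by this measure it was about as close to 3A as to its own group. By the chi-square of the counts per degree of freedom, where a lower value means closer libraries, it was nearer to 3A (99.5 to 163) than to Control 2 and Control 3 (262 and 311). The share of counts on mitochondrial mRNA was 1.58%, 1.23% and 1.30% in 3A 1, 2 and 3, and 1.16%, 4.16% and 4.69% in Control 1, 2 and 3. Control 1 therefore had a mitochondrial share like that of 3A. All 12 keratinocyte markers were detected, with a summed level of 7728 to 9870 CPM (read counts scaled to a common library size) in 3A and 10455 to 12363 CPM in Control. Of 14 immune cell markers, 2 passed the filter (Cd68 and Csf1r) and 5 had no count in any library. The summed immune marker level was 11.2 to 14.6 CPM in 3A and 14 to 23.1 CPM in Control. Fibroblast markers summed to 2.05 to 3.40 CPM in 3A and 2.38 to 3.36 CPM in Control, endothelial markers to at most 0.946 CPM in 3A and 0.513 CPM in Control, and melanocyte markers to 1.58 to 2.13 CPM in 3A and 3.25 to 3.78 CPM in Control. The part of these markers in the results was not tested, and in bulk RNA fewer expressing cells and less RNA per cell cannot be told apart.

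In 3A, 4 of the 9 genes fell and none rose. Irf7 fell 3.01-fold, Ifngr1 1.89-fold, Ifnar2 1.72-fold and Stat2 1.45-fold. The test was edgeR's quasi-likelihood test over all 13704 genes with Benjamini-Hochberg adjustment, and "fell" and "rose" mean an adjusted p under 0.05. Of all tested genes, 7.39% were called lower, 7.52% higher and 14.9% in either direction. Before adjustment, 4 were lower and 0 higher at p under 0.05 (edgeR). DESeq2 called 4 lower and 0 higher, and limma-voom 3 lower and 0 higher. Over all 13704 tested genes, 2485 were lower and 2171 higher before adjustment (edgeR). DESeq2 called 1887 of all genes lower and 1678 higher, and limma-voom 997 and 1084. The median log2 fold change was -0.33 over the 9 genes and -0.02 over all tested genes. For 5 of the 9 genes the libraries of the groups did not overlap, 4 with 3A below and 1 with 3A above, against 36.1% of all tested genes. Of the 12 keratinocyte markers 3 also fell and 0 rose, with a median log2 fold change of -0.44. They were Krt15, a basal cell keratin (0.195 ± 0.144 CPM in 3A and 3.60 ± 0.32 CPM in Control), Trp63, the p63 transcription factor (91.1 ± 15.4 CPM in 3A and 139 ± 5.70 CPM in Control), and Perp, a desmosome protein gene (579 ± 30.1 CPM in 3A and 998 ± 152 CPM in Control; SD, n = 3 each). The part of this shift in the results was not tested.

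**Figure D1:**
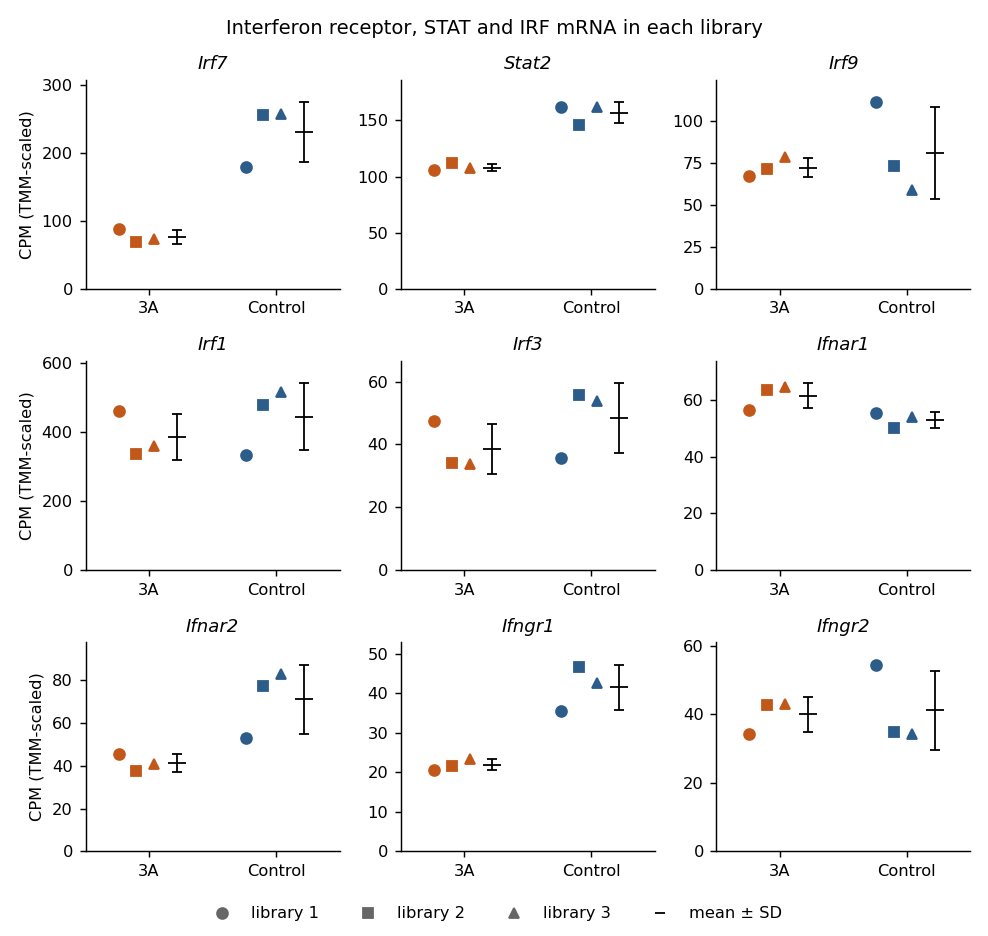
Level of each of the 9 genes in CPM, on axes that start at 0, for the 3 libraries of 3A (orange, left) and of Control (blue, right), with the mean and SD in black. For Irf7, Stat2, Ifnar2 and Ifngr1 every 3A library lies below every Control library, and for Irf9 and Ifngr2 Control 1 is the highest of the 6.

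Irf7, the interferon-induced amplifier, showed the largest difference of the 9. Its gene (ENSMUSG00000025498) spans 141262706 to 141266481 of chromosome 7, minus strand, in GRCm38, the mm10 assembly that all positions here refer to. It had 3081, 2581 and 2616 counts in 3A 1, 2 and 3, and 5691, 7481 and 6056 counts in Control 1, 2 and 3. Scaled for depth, this was 88.3, 68.8 and 72.8 CPM in 3A, against 180, 256 and 257 CPM in Control. The lowest Control library, Control 1, was still above the highest 3A library. Irf7 averaged 76.6 ± 10.3 CPM in 3A and 231 ± 43.9 CPM in Control (SD, n = 3 each). This gave a log2 fold change of -1.59 (SE 0.20), with an edgeR adjusted p = 0.00325. It was -1.73 without Control 1 (edgeR adjusted p = 0.000181), and Irf7 also passed when any of the other 5 libraries was left out (edgeR adjusted p from 0.0133 to 0.0291). The mitochondrial share was low in 3A and in Control 1 and higher in the other Control libraries, and its part in this difference was not tested. Exons of Irf7 overlap those of Phrf1 on the opposite strand, and the strand setting of the counting is not given in the sources used here. Phrf1 had a log2 fold change of -0.26 and was not called (edgeR adjusted p = 0.248).

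Stat2, the STAT best known for its place in the type I interferon pathway, fell by 0.53 on the log2 scale (SE 0.13, edgeR adjusted p = 0.0365). Its gene (ENSMUSG00000040033) is on the plus strand of chromosome 10 at 128270559 to 128292849. Its level was 106, 112 and 108 CPM in 3A 1, 2 and 3, and 162, 146 and 162 CPM in Control 1, 2 and 3. The groups did not overlap, and for this gene Control 1 was level with Control 3. Stat2 averaged 108 ± 3.07 CPM in 3A and 157 ± 9.29 CPM in Control (SD, n = 3 each). Stat2 still passed without Control 1 (log2 fold change -0.50, edgeR adjusted p = 0.0115). When any of the other 5 libraries was left out it no longer passed, with log2 fold changes from -0.59 to -0.51 and edgeR adjusted p from 0.0914 to 0.172.

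Irf9, the DNA-binding partner of Stat2, did not pass the test. Its gene (ENSMUSG00000002325) is on the plus strand of chromosome 14 at 55603571 to 55610030. It had 67.3, 71.0 and 78.1 CPM in 3A 1, 2 and 3, and 111, 72.8 and 58.6 CPM in Control 1, 2 and 3. The 3A libraries lay inside the wide Control range. The log2 fold change of -0.17 (95% interval -0.74 to 0.41, edgeR adjusted p = 0.648) turned to 0.14 without Control 1 (edgeR adjusted p = 0.438). Exons of Irf9 overlap those of its neighbour Rnf31 on the same strand, so reads of the overlap may have been left out or divided between them. Rnf31, which encodes a subunit of the linear ubiquitin ligase complex, fell (log2 fold change -0.91, edgeR adjusted p = 0.0221). Per kilobase of exon, the log2 ratio of Irf9 to Stat2 within a library was -0.51, -0.51 and -0.33 in 3A 1, 2 and 3, and -0.41, -0.87 and -1.33 in Control 1, 2 and 3. These ratios overlapped between the groups through Control 1.

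Irf3, the constitutive factor activated by nucleic acid sensing, had 47.6, 34.2 and 33.8 CPM in 3A 1, 2 and 3, and 35.8, 55.8 and 53.7 CPM in Control 1, 2 and 3. The groups overlapped, since 3A 1 was above Control 1. Irf3 (ENSMUSG00000003184, plus strand of chromosome 7, 44997648 to 45002848) had a log2 fold change of -0.33 (95% interval -0.87 to 0.21, edgeR adjusted p = 0.337). Without Control 1 it was -0.50 and passed (edgeR adjusted p = 0.0454). Its exons overlap those of Bcl2l12 on the opposite strand. The log2 ratio of Irf7 to Irf3 per kilobase, a comparison chosen after the values were seen, was 0.76, 0.87 and 0.98 in 3A 1, 2 and 3, and 2.2, 2.06 and 2.13 in Control 1, 2 and 3. Per kilobase of annotated exon, Irf7 thus stood 1.83-fold above Irf3 in 3A and 4.38-fold in Control (geometric means), with no overlap between the groups.

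Irf1, the factor induced by interferon gamma, was the most abundant of the 9. It (ENSMUSG00000018899, plus strand of chromosome 11, 53770014 to 53778374) had 462, 337 and 359 CPM in 3A 1, 2 and 3, and 335, 480 and 518 CPM in Control 1, 2 and 3. Control 1 was the lowest of all 6 libraries and 3A 1 lay close to Control 2. The log2 fold change was -0.20 (95% interval -0.72 to 0.31, edgeR adjusted p = 0.525), and Irf1 did not pass without Control 1 either (log2 fold change -0.36, edgeR adjusted p = 0.0915). Exons of Irf1 overlap Gm17334 on the opposite strand, which had 6 to 11 counts in 3A and 12 to 32 counts in Control.

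Of the 4 receptor chains, 2 fell and 2 did not pass the test. Ifngr1, the ligand-binding chain for interferon gamma, had 20.7, 21.6 and 23.4 CPM in 3A 1, 2 and 3, and 35.5, 46.7 and 42.5 CPM in Control 1, 2 and 3. Every 3A library was below every Control library. Ifngr1 (ENSMUSG00000020009, plus strand of chromosome 10, 19591949 to 19610229) averaged 21.9 ± 1.39 CPM in 3A and 41.5 ± 5.68 CPM in Control (SD, n = 3 each). The log2 fold change came to -0.92 with 6 libraries (SE 0.16, edgeR adjusted p = 0.0108) and to -1.01 without Control 1 (edgeR adjusted p = 0.00115). Leaving out any other library gave edgeR adjusted p from 0.0420 to 0.0769. It passed in 2 of those 5 cases, without Control 3 or without 3A 1, and did not pass without Control 2, 3A 2 or 3A 3.

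Ifngr2, the signalling chain of the same receptor, did not pass the test. It had 34.2, 42.8 and 43.1 CPM in 3A 1, 2 and 3, and 54.4, 34.9 and 34.1 CPM in Control 1, 2 and 3. Control 1 was the highest library and the other Control libraries were among the lowest. The log2 fold change was -0.04 (95% interval -0.56 to 0.49, edgeR adjusted p = 0.917). Its sign turned with library size alone as the scaling, and the value was 0.23 without Control 1 (edgeR adjusted p = 0.238). The log2 ratio of Ifngr1 to Ifngr2 per kilobase was -0.32, -0.58 and -0.47 in 3A 1, 2 and 3, and -0.21, 0.83 and 0.72 in Control 1, 2 and 3. All 3A ratios were below all Control ratios, but Control 1 was much closer to 3A than to the other Control libraries. Such a ratio within a library does not depend on the scaling of depth.

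Ifnar2, the high-affinity chain of the type I receptor, fell by 0.78 on the log2 scale (SE 0.20, edgeR adjusted p = 0.0449). It had 45.7, 37.6 and 41.0 CPM in 3A 1, 2 and 3, and 52.8, 77.3 and 83.1 CPM in Control 1, 2 and 3. The groups did not overlap, with Control 1 nearest to 3A. Ifnar2 (ENSMUSG00000022971, plus strand of chromosome 16, 91372783 to 91405589) averaged 41.4 ± 4.07 CPM in 3A and 71.1 ± 16.1 CPM in Control (SD, n = 3 each). It passed without Control 1 (log2 fold change -0.94, edgeR adjusted p = 0.00163) but not without any other library (edgeR adjusted p from 0.0788 to 0.192). The exons of Ifnar2 overlap Gm21970 on the same strand, which had at most 4 counts in a library. Reads of that overlap may have been left out of both. Counts over the whole gene do not tell its soluble and membrane-bound isoforms apart.

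Ifnar1, the partner chain, had 56.4, 63.3 and 64.4 CPM in 3A 1, 2 and 3, and 55.3, 49.9 and 54.0 CPM in Control 1, 2 and 3. Every 3A library was above every Control library, by a small margin between 3A 1 and Control 1. The log2 fold change of 0.21 (95% interval -0.11 to 0.53, edgeR adjusted p = 0.304) did not pass, and neither did that of 0.25 without Control 1 (edgeR adjusted p = 0.146). The log2 ratio of Ifnar1 to Ifnar2 per kilobase was -0.53, -0.08 and -0.18 in 3A 1, 2 and 3, and -0.77, -1.47 and -1.46 in Control 1, 2 and 3. The 3A ratios were all above the Control ratios, but Control 1 was closer to 3A 1 than to the other Control libraries. Per kilobase of annotated exon, the chains were closer to parity in 3A (0.831-fold) than in Control (0.426-fold, geometric means).

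**Figure D2:**
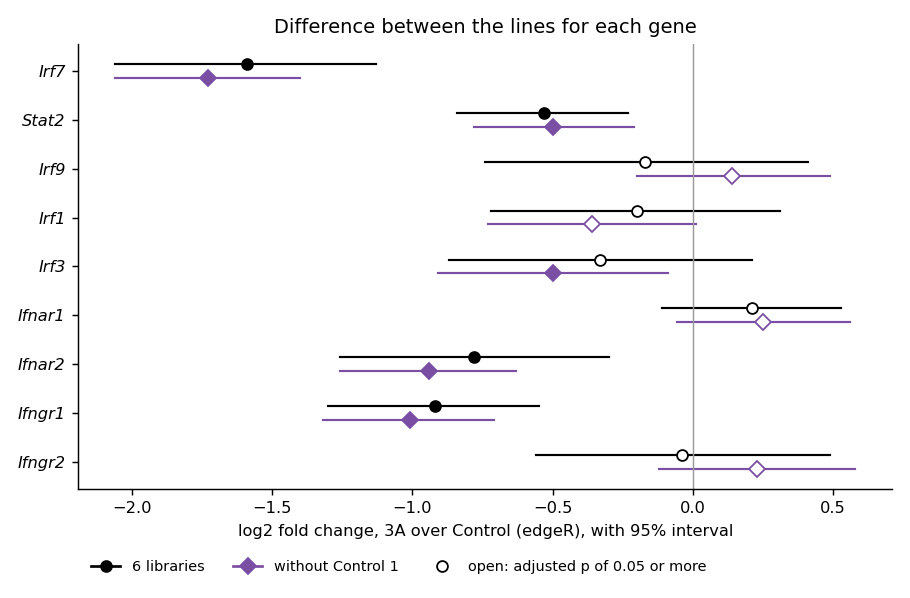
Log2 fold change of 3A over Control for each gene with its 95% interval (edgeR), with 6 libraries (black circles) and without Control 1 (purple diamonds). Filled symbols have an adjusted p under 0.05, and open ones do not: 4 genes are filled with 6 libraries and 5 without Control 1.

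Without Control 1 the calls grew in number for these genes and far more for the genome. Then 5 of the 9 genes were called lower (Irf7, Ifngr1, Ifnar2, Stat2 and Irf3) and 0 higher. Among all 14300 genes tested without that library, 25.8% were called lower, 26.2% higher and 52.0% in either direction. Leaving out any other library gave 1 or 2 of the 9 genes called lower, Irf7 each time.

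Ifnar2, Ifnar1 and Ifngr2 lie together on the plus strand of chromosome 16, with Il10rb, a receptor chain shared by interleukin-10 family cytokines and interferon lambda, between Ifnar2 and Ifnar1. Ifnar1 (ENSMUSG00000022967) spans 91485238 to 91507441 and Ifngr2 (ENSMUSG00000022965) spans 91547072 to 91565623. Il10rb starts 33.4 kb from the start of Ifnar2, Ifnar1 112 kb and Ifngr2 174 kb. Il10rb had 53.1, 40.7 and 41.5 CPM in 3A 1, 2 and 3, and 44.9, 80.5 and 86.8 CPM in Control 1, 2 and 3. It did not pass with 6 libraries (log2 fold change -0.65, edgeR adjusted p = 0.136) and passed without Control 1 (-0.88, edgeR adjusted p = 0.00325). The 4 receptor genes of the cluster thus had log2 fold changes on both sides of 0, from -0.78 for Ifnar2 to 0.21 for Ifnar1. Further along the chromosome, Gart and Cryzl1 rose, both named after their values were seen. Gart, a gene of purine synthesis, starts 248 kb from the start of Ifnar2, and Cryzl1 317 kb. Their log2 fold changes were 0.71 and 0.62 (edgeR adjusted p = 0.0418 and edgeR adjusted p = 0.0213). The other tested genes between Ifngr2 and Cryzl1 did not pass. Their log2 fold changes were 0.29 for Tmem50b, -1.04 for Gm15964, -0.49 for Dnajc28, -0.53 for Son, -0.04 for Donson and -0.08 for Gm10785. Of all tested genes, 7.52% were called higher.

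**Figure D3:**
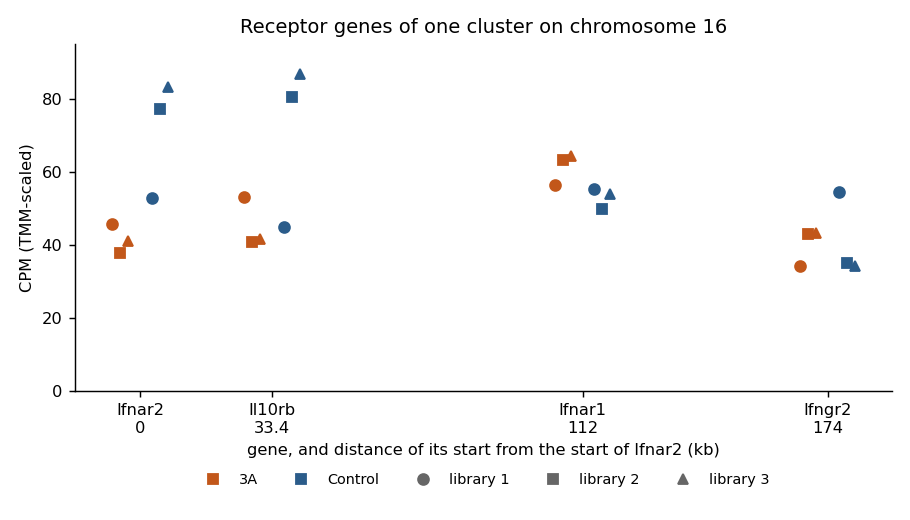
CPM of the 4 receptor genes of the chromosome 16 cluster against the distance of each gene's start from that of Ifnar2 in kb, for 3A (orange, left of each position) and Control (blue), with a symbol for each library. Ifnar2 is lower in all 3A libraries, while the groups overlap for Il10rb and Ifngr2 and lie close together for Ifnar1.

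Stat2 and Ifngr1 are both on chromosome 10, which had the lowest median log2 fold change among the autosomes and the X chromosome. The median log2 fold change of the 614 other tested genes on chromosome 10 was -0.27, and 14.3% of the chromosome's genes were called lower. Within 5 Mb of Stat2, the 80 other tested genes had a median of -0.34, with 11 called lower and 0 higher, beside -0.53 for Stat2. Within 5 Mb of Ifngr1, the 34 other tested genes had a median of -0.17, with 6 called lower and 3 higher, beside -0.92 for Ifngr1. The part of this regional shift in the results for Stat2 and Ifngr1 was not tested. Around the other called genes the medians were 0.03 for Irf7 (99 genes) and 0.08 for Ifnar2 (55 genes).

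Levels of different genes were compared as RPKM, the CPM value divided by the kilobases of annotated exon. This length joins the exons of all annotated transcripts of a gene. For Irf7 it was 3776 bases, the whole span of the gene. The order of the genes and the ratios between them therefore depend on this annotation. In 3A, Irf1 was highest at 97.2 ± 16.8 RPKM (SD, n = 3), followed by Irf7 at 20.3 ± 2.73, Stat2 at 18.3 ± 0.519, Irf9 at 13.4 ± 1.02, Ifnar2 at 12.4 ± 1.22, Irf3 at 11.2 ± 2.29, Ifngr2 at 10.6 ± 1.34, Ifnar1 at 10.3 ± 0.726 and Ifngr1 at 7.70 ± 0.489 RPKM. In Control the order was Irf1 at 112 ± 24.3, Irf7 at 61.2 ± 11.6, Stat2 at 26.4 ± 1.57, Ifnar2 at 21.4 ± 4.84, Irf9 at 15.0 ± 5.05, Ifngr1 at 14.6 ± 1.99, Irf3 at 14.1 ± 3.20, Ifngr2 at 10.9 ± 3.05 and Ifnar1 at 8.93 ± 0.475 RPKM. In 3A the libraries of neighbours in this order separated only between Irf1 and Irf7, between Stat2 and Irf9 and between Ifnar1 and Ifngr1. In Control they separated only between Irf1 and Irf7 and between Irf7 and Stat2, and all later neighbours overlapped. Irf7 and Stat2 therefore overlapped in 3A and not in Control, and Ifngr1 was the lowest of the 9 in 3A and sixth in Control.

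RefSeq promoter windows (GRCm38.p6, from 250 bases before to 50 after a start site) were searched for the letters of the ISRE and GAS on both strands. The ISRE-like letters were GAAANNGAAA and the GAS-like letters TTCNNNGAA, which are their own reverse complement. All 9 genes had a window, 11 windows in all. The windows with a match are shown to let the letters of known interferon response elements be seen in genes of that response, with the matched letters in capitals, 5′ to 3′ on the strand of the gene.
Stat2, ISRE-like on the opposite strand, chr10:128270261-128270300: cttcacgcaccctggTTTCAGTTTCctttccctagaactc
Irf1, GAS-like, chr11:53769909-53769947: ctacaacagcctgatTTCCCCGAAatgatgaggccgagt
Ifnar2, GAS-like, chr16:91372554-91372592: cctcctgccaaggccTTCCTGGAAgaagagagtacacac
Ifnar1, GAS-like, chr16:91485195-91485233: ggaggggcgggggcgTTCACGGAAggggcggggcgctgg
The match began 222 bases before the start site in Stat2, 90 in Irf1, 214 in Ifnar2 and 5 in Ifnar1, and no match of one kind overlapped one of the other. ISRE-like letters were in 3.44% of all 32851 windows and GAS-like letters in 8.30%. Genes with a match included both called genes (Stat2, Ifnar2) and genes that were not called (Irf1, Ifnar1), and the windows of Irf7, Irf9, Irf3, Ifngr1 and Ifngr2 had neither set of letters. A match describes letters only.

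Outside the 9 genes, most of the other STAT and IRF genes examined did not pass. Of 9 further STAT and IRF genes, 7 were tested, of which 0 rose and 1 fell, against 7.52% and 7.39% of all tested genes. Their median log2 fold change was -0.43. Before adjustment, edgeR gave 1 higher and 3 lower at p under 0.05, DESeq2 called 1 and 2, and limma-voom 0 and 1. All 13704 tested genes gave 2171 and 2485, 1678 and 1887, and 1084 and 997. The gene that fell was Irf2, a largely repressive relative of Irf1 that binds the same element, with 27.1 ± 5.47 CPM in 3A and 52.5 ± 11.3 CPM in Control (SD, n = 3 each; log2 fold change -0.96, edgeR adjusted p = 0.0329). Stat3 averaged 133 ± 18.5 CPM in 3A and 112 ± 47.0 CPM in Control and was not called with 6 libraries (edgeR adjusted p = 0.568), but was without Control 1 (log2 fold change 0.66, edgeR adjusted p = 0.0120). All 4 Janus kinases were tested and 0 rose and 0 fell by edgeR, with 0 higher and 1 lower before adjustment and by DESeq2, and none by limma-voom. The receptor kinases Jak1, Jak2 and Tyk2 had log2 fold changes of -0.08, 0.11 and -0.22.

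Of 14 negative regulators, all tested, 1 rose and 1 fell, against 7.52% and 7.39% of all tested genes, with a median log2 fold change of -0.41. Before adjustment, edgeR gave 1 higher and 9 lower at p under 0.05, DESeq2 called 1 and 4, and limma-voom 1 and 1. The same counts over all 13704 tested genes were 2171 and 2485, 1678 and 1887, and 1084 and 997. For 7 of the 14 every 3A library was below every Control library, and for 1 every 3A library was above. Among all 13704 tested genes, 2406 lay below and 2545 above in this way, which together is 36.1%. Socs2, a suppressor of cytokine signalling best known for growth hormone receptors, averaged 7.03 ± 0.889 CPM in 3A and 2.99 ± 0.472 CPM in Control (SD, n = 3 each; log2 fold change 1.24, edgeR adjusted p = 0.0118). Pias4, which encodes a SUMO ligase that inhibits STATs, fell by 0.99 on the log2 scale (edgeR adjusted p = 0.0290). Socs1, the main brake on Janus kinases below the interferon receptors, did not pass (log2 fold change -0.75, edgeR adjusted p = 0.144; -0.96 and edgeR adjusted p = 0.0150 without Control 1). Without Control 1, 3 of the negative regulators were called higher and 6 lower, against 26.2% and 25.8% of all genes tested then.

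Of 14 adaptors and kinases that activate Irf3 and Irf7, 13 were tested. Among them 0 were called higher and 1 lower, against 7.52% and 7.39% of all tested genes. The median log2 fold change was 0.32. Without adjustment, edgeR gave 4 higher and 2 lower at p under 0.05, DESeq2 called 4 and 1, and limma-voom 0 and 1. Over all 13704 tested genes these were 2171 and 2485, 1678 and 1887, and 1084 and 997. Ticam1, the adaptor of the endosomal double-stranded RNA receptor, fell to 8.08 ± 1.34 CPM in 3A, against 14.5 ± 0.0426 CPM in Control (SD, n = 3 each; log2 fold change -0.85, edgeR adjusted p = 0.0221). Tbk1, the kinase that phosphorylates Irf3, averaged 52.0 ± 2.75 CPM in 3A and 50.0 ± 3.09 CPM in Control. Without Control 1, 8 of these genes were called higher and 2 lower, against 26.2% and 25.8% of all genes tested then.

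The interferon genes themselves were close to undetected. None of 21 ligand genes passed the filter, 13 had no count in any library, and all 21 together had 64 counts over the 6 libraries. Ifnb1, the interferon beta gene, had 2, 0 and 5 counts in 3A 1, 2 and 3, and 14, 10 and 6 counts in Control 1, 2 and 3. Every Control count was above every 3A count, but Control 3 with 6 counts was barely above 3A 3 with 5. The level was at most 0.139 CPM in 3A and 0.444 CPM in Control, and the difference was not tested. Among all tested genes, the groups did not overlap for 36.1%. Ifng had no count in any library.

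Of 36 genes known as ISRE targets, all tested, 0 rose and 15 fell, against 7.39% of all tested genes that fell, and the remaining 21 did not pass. The median log2 fold change was -0.70, with 27 genes below 0. Without adjustment, edgeR gave 0 higher and 23 lower at p under 0.05, while DESeq2 called 0 and 20 and limma-voom 0 and 16. Over all 13704 tested genes these counts were 2171 and 2485, 1678 and 1887, and 1084 and 997. Without Control 1, 3 were called higher and 23 lower, against 26.2% and 25.8% of all genes tested then. The 4 with the smallest p were Dhx58, an RNA sensor of the RIG-I family (log2 fold change -4.03), Ifit3, an antiviral protein gene (-2.89), Oas2, an oligoadenylate synthetase gene (-3.16), and Ifi27l2a (-3.80), with edgeR adjusted p from 0.000318 to 0.00149. Other ISRE targets had values on the other side of 0 and did not pass, among them Parp14 (0.68) and Trim25 (0.80). Both passed as higher without Control 1 (edgeR adjusted p = 0.00569 and edgeR adjusted p = 0.00530).

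Of 33 genes known as interferon gamma targets, 32 were tested, of which 4 rose and 2 fell, against 7.52% and 7.39% of all tested genes, with a median log2 fold change of -0.32. Those that rose were Tgtp1 (log2 fold change 2.02), Tgtp2 (1.90) and Iigp1 (0.98), which encode immunity-related GTPases, and Ciita (1.16), the activator of MHC class II genes. Tgtp1 and Tgtp2 are near-identical copies, so reads may have been left out or divided between them. The genes that fell were Gbp5, a guanylate-binding protein gene (-2.23), and the chemokine gene Cxcl10 (-1.22). With all libraries, limma-voom called 4 higher and 1 lower and DESeq2 6 and 6. Among all 13704 tested genes, limma-voom called 1084 and 997 and DESeq2 1678 and 1887. Without Control 1, edgeR called 9 higher and 12 lower, against 26.2% and 25.8% of all genes tested then.

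**Figure D4:**
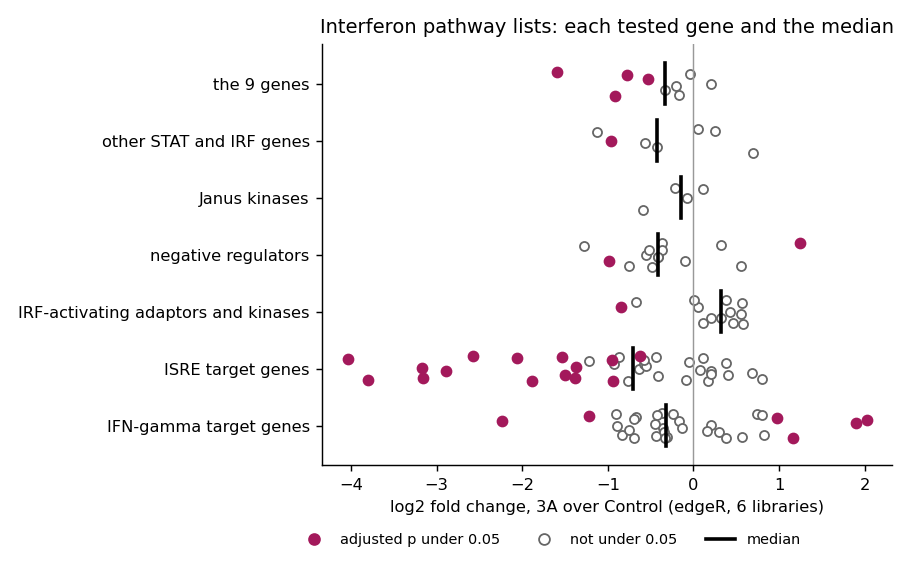
Log2 fold change of 3A over Control (edgeR, 6 libraries) for each tested gene of the 9 and of 6 lists, with filled points for an adjusted p under 0.05, open points for the rest and a bar at the median. The ISRE targets reach from -4.03 to 0.80 and have all their filled points left of 0, while the interferon gamma targets have filled points on both sides.

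The genes whose pattern over the 6 libraries was most like that of Irf7, among 9654 genes with a mean of at least 5 CPM, were Tigit, Pink1 and Pmaip1. The measure was the root mean square difference in log2 CPM after subtracting each gene's own mean, and it was 0.06 for Tigit, 0.09 for Pink1 and 0.10 for Pmaip1. Tigit had 8.22, 6.48 and 6.6 CPM in 3A 1, 2 and 3, and 15.6, 22 and 21.7 CPM in Control 1, 2 and 3.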

How the data were processed

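The authors deposited raw read counts per mouse Ensembl gene for 6 libraries, not normalized. The tools named are featureCounts, Trim Galore, limma and edgeR, and the builds hg38, GRCh38 and mm10, per the submitters' processing notes. The sources used here do not give the aligner, annotation or strand setting. Symbols, positions and union exon lengths came from GENCODE M21 (49056 IDs matched, 259 did not, at most 0.0123% of a library's counts).

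The test was that of edgeR 4.0.16, run in R 4.3.3 (filterByExpr, TMM scaling, glmQLFit, glmQLFTest, group as the only term), 3A over Control, with Benjamini-Hochberg adjustment over all tested genes and a threshold of 0.05. CPM uses TMM-scaled library sizes. The pipeline was tested on simulated counts. DESeq2 1.42.0, limma-voom 3.58.1, other scalings and filters, a replicate block and each library left out were alternatives. The genes, lists and tests were chosen with earlier results of these data known. The text names the 9 genes, up to 4 called genes per list by smallest p, list genes of a described role with their value, and the 3 genes most like the member with the smallest p. Replicate libraries differed by more than sampling noise, with a chi-square per degree of freedom of at least 15.7. Results for a few single genes of the lists are left out and not reported here. The precision is set by 3 libraries a group.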

Additional observations from a re-analysis of the deposited data

How the results depend on the processing

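With other scalings, filters or tools, the 9 genes gave 3 or 4 called lower and 0 higher. Irf7 and Ifngr1 passed in each of those fits. Stat2 did not pass with library size alone or with no low-count filter, and Ifnar2 did not pass with upper quartile scaling or limma-voom. Over all genes, DESeq2 called 1678 higher and 1887 lower. For the interferon gamma targets, upper quartile scaling and limma-voom each called 1 lower and DESeq2 6. Leaving out each library in turn gave 346 to 3751 genes higher and 318 to 3690 lower over all genes. It gave 1 to 5 of the 9 genes lower, 0 to 3 ISRE targets higher and 8 to 23 lower, and 1 to 9 interferon gamma targets higher and 1 to 12 lower, with the top of each range without Control 1. Signs turned for Irf9 (-0.35 to 0.14 over the libraries left out, positive without Control 1) and for Ifngr2 (0.012 with library size alone, and -0.16 to 0.23 over the libraries left out, positive without Control 1 at 0.23 and without 3A 1 at 0.071), neither of which was called. Of the 135 fold changes of the 9 genes under alternatives, 109 kept sign and side of the threshold, 21 no longer passed, 1 newly passed and 4 changed sign. The cause was not tested. With the 200 bases before the start site only, 0 genes had ISRE-like and 1 had GAS-like letters.

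Deviations from the group means of same-numbered libraries correlated at -0.66, -0.42 and -0.38. Those of differently numbered libraries lay between -0.415 (3A 2 with Control 3) and 0.537 (3A 2 with Control 1, and 3A 1 with Control 3). Same-numbered libraries thus did not deviate in the same direction. With 3 libraries a group, a gene's deviations sum to 0, so the correlations depend on each other. Whether the replicate numbers pair the libraries was not tested. With the replicate number as a block, edgeR called 142 genes higher and 146 lower, 0 of the 9 genes, 6 ISRE targets lower, and 0 interferon gamma targets higher and 1 lower. Irf7 then had a log2 fold change of -1.58 (edgeR adjusted p = 0.0627).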

Other observations

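Among other class II cytokine receptor chains, Ifnlr1, which binds interferon lambda, averaged 8.48 ± 1.47 CPM in 3A and 9.65 ± 0.319 CPM in Control (SD, n = 3 each) and did not pass (log2 fold change -0.19, edgeR adjusted p = 0.497). Il22ra1, the interleukin-22 receptor chain, had 1.23, 3.94 and 4.29 CPM in 3A 1, 2 and 3, and 4.53, 1.2 and 0.722 CPM in Control 1, 2 and 3. It did not pass with 6 libraries (log2 fold change 0.54, edgeR adjusted p = 0.618) and passed without Control 1, its highest library (1.71, edgeR adjusted p = 0.0333). Il10ra, Il20ra and Il22ra2 did not pass the low-count filter.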
